A study of Mus musculus with 22 samples.

Results

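The Notch pathway genes described here are 10 of the 19050 genes tested on whole-transcript arrays of mouse urogenital sinus epithelium. They are the receptors Notch1, Notch2 and Notch3, the ligands Jag1, Jag2 and Dll1, and the target genes Hes1, Hey1, Heyl and Nrarp. The genes were listed by name, and each was read from the probe set that carried its symbol alone, of which each gene had exactly 1. All 10 passed the filter on dim probe sets and lay above the median of the array on all 22 arrays. The arrays held 6 male knockouts, 6 male controls, 5 female knockouts and 5 female controls, all from C57BL/6J fetuses at embryonic day E16.75. Knockouts were ShhCre/+; Sox9fl/fl, with Cre recombinase placed at 1 Shh allele and both Sox9 alleles floxed. Their littermate controls were Shh+/+; Sox9+/fl, without Cre and with 1 floxed Sox9 allele, so that floxed Sox9 was present in both genotypes and Cre in the knockouts alone. Cre was driven from the Shh locus, which is active in this epithelium, and each knockout therefore had 1 unaltered Shh allele. The sinus gives rise to prostatic buds in male fetuses, and its epithelium was separated from the mesenchyme with trypsin and collagenase. Whether an array held RNA of 1 fetus or of a pool is not given in the sources used here, so the p-values measure the spread between these arrays.

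Notch signalling passes between cells in contact. A ligand of the Jagged or Delta-like family on one cell binds a Notch receptor on its neighbour, the receptor is cut by an ADAM protease and then by gamma-secretase, and the freed intracellular domain enters the nucleus and joins the DNA-binding protein RBPJ and a Mastermind coactivator to switch on Hes and Hey genes. In the rodent prostate the pathway is known for its part in epithelial branching and in the balance of basal and luminal cells.

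Sox9 was read first as the check of the genotype labels, and its knockout minus control difference was -1.07 on the log2 scale in males (SE 0.08, adjusted p = 1.045e-07, limma) and -1.003 in females (SE 0.09, adjusted p = 2.28e-06), with no overlap of arrays. Shh, the locus of the Cre insertion, was lower as well, by -0.45 in males (adjusted p = 0.008737) and -0.56 in females (adjusted p = 0.01279). Sox9 loss, the lower Shh and the presence of Cre come together in the knockouts and cannot be told apart here. Below, Sox9 loss stands for this whole knockout genotype against its controls. All 22 arrays matched their labelled sex. The 12 epithelial markers, among them Epcam and Cdh1, averaged 11.08 to 11.23 over the arrays. The 10 usable mesenchyme markers averaged 6.55 to 7.05 on 21 arrays and 7.55 on male control 6, which also had the highest mean over 10 smooth muscle and mural cell markers (6.97). Of the 13 endothelial markers 7 were bright enough to be used, with means of 5.72 to 6.30, while Pecam1, Kdr, Tek, Emcn and Sox17 lay below the filter.

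None of the 10 Notch genes passed the threshold between knockouts and controls in either sex. The threshold was a Benjamini-Hochberg adjusted p under 0.05 in limma over all genes. In male knockouts against male controls 0 of 10 were called, where 0.199% of all genes tested were. An unadjusted p under 0.05 was found for 1 of the 10 (Hey1), and for 1195 of all 19050 genes. In female knockouts against female controls 0 of 10 were called, where 0.0315% of all genes were. Here 1 of the 10 (Notch1) had an unadjusted p under 0.05, as had 1041 of all 19050 genes. Averaged over the sexes the knockout comparison called 0 of 10, against 0.247% of all genes. Notch1 alone was under an unadjusted p of 0.05, as were 1369 of all 19050 genes. The 95% intervals of the knockout minus control differences reached from -0.49 (the lower bound of Hey1) to 0.27 (the upper bound of Jag1) in males, and from -0.51 (Notch1) to 0.24 (Hey1) in females, on the log2 scale. The median difference of the 10 genes was 0.019 in males and -0.070 in females, while the median over all genes tested was 0.011 and 0.0083. In males 7 of the 10 differences were positive, where 10799 of all 19050 were. In females 9 of 10 were negative, with Heyl as the exception, where 8613 of all 19050 were.

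The sexes differed in 2 of the 10 genes. Hey1 was lower in males than in females in both genotypes, and Jag1 was lower in male than in female controls. In controls 2 of 10 were called, where 6.94% of all genes were, and in knockouts 1 of 10 (Hey1), where 7.19% of all genes were. Hes1 in controls and Notch1 in knockouts had an unadjusted p under 0.05 without being called. Under that p were 3632 of all 19050 genes in controls and 3271 in knockouts. The median male minus female difference of the 10 genes was -0.087 in controls and 0.0051 in knockouts, and over all genes -0.013 and -0.012. As the arrays held bulk tissue, fewer cells that express a gene and less of its RNA per cell cannot be told apart.

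**Figure D1:**
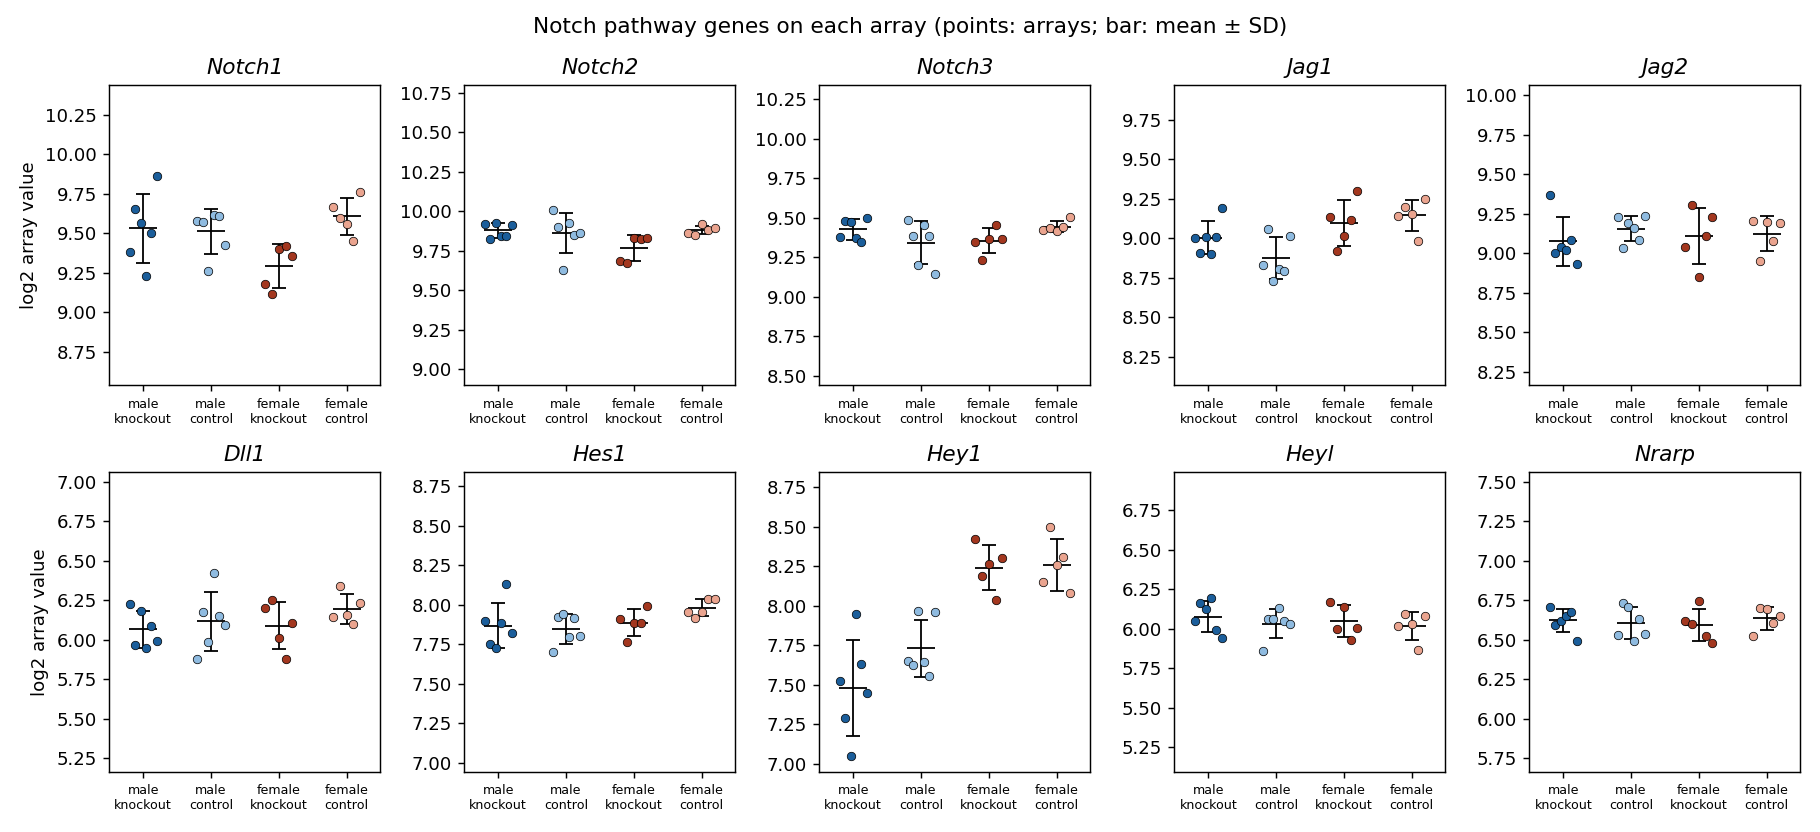
Deposited log2 array values (vertical axes) of the 10 Notch genes, with 1 panel per gene and the 4 groups on the horizontal axes. Points are arrays (6 or 5 per group), bars are means ± SD, and every panel spans the same number of log2 units around its own level. Hey1 separates the sexes, with male arrays at 7.96 at most and female arrays at 8.03 at least, and the female knockouts lie below the female controls in Notch1 and Notch2.

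Notch1, the receptor with the widest spread of the 3, gave the smallest unadjusted p of the 10 genes after Sox9 loss, in females. The female knockout arrays read 9.18, 9.12, 9.40, 9.42 and 9.35, against 9.67, 9.60, 9.55, 9.45 and 9.76 in the female controls. Every female knockout array was below every female control array. The difference was -0.31 (SE 0.10, 95% interval -0.51 to -0.11, unadjusted p = 0.003527). Its adjusted p over all genes was 0.6396 in limma, so it was not called. Male knockouts ran from 9.23 through a median of 9.53 to 9.86, and male controls from 9.26 through 9.58 to 9.62. These male groups overlapped along most of their range, and their difference was 0.020 (SE 0.09, adjusted p = 0.9851). The male effect minus the female effect was 0.33 (SE 0.13, unadjusted p = 0.01753, adjusted p = 0.9968), so a difference between the sexes was not established. Male knockouts were 0.24 above female knockouts (adjusted p = 0.1469), a comparison that became a call only without male knockout 4 (0.30, adjusted p = 0.03666).

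Beside the lower Notch1 values of the female knockouts, the mean of the 8 urothelium markers ran from 9.88 to 10.45 in female knockouts and from 9.74 to 10.14 in female controls, and 8 of 8 had a positive difference, with 0 called and 4 at an unadjusted p under 0.05 in limma. The 11 immune markers averaged 6.18 to 6.56 in female knockouts and 6.19 to 6.35 in female controls, with 10 of 11 differences positive, 0 called and 1 at an unadjusted p under 0.05. With group means removed, Notch1 went with the urothelium markers at r = -0.455 and with the immune markers at r = -0.46 over the 22 arrays. The 4 neural and glial markers gave a similar value of r = -0.423. Arrays with more of any of these signals thus tended to read lower in Notch1. Values of like size were found for other members. With the urothelium markers Heyl gave r = 0.5, Hey1 0.476, Hes1 0.415 and Nrarp 0.413, and the remaining members lay between -0.208 and 0.175. The neural and glial markers averaged 6.81 to 7.01 in female knockouts and 6.76 to 6.96 in female controls, with 2 differences positive, 2 negative and 0 called. No fit held any of these lists as a covariate, and their part in the Notch1 difference was not tested.

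The 250 bases upstream of the annotated start of Notch1 (RefSeq, GRCm38.p6, chr2:26503823-26504072, minus strand) are shown because Notch1 had the lowest p after Sox9 loss. They were searched on both strands for 4 motifs, which are the core of the RBPJ site TGGGAA, the E-box CACGTG to which Hes and Hey proteins can bind, the SOX core AACAAT and the androgen receptor half-site AGAACA, and capitals would mark a match.
Notch1: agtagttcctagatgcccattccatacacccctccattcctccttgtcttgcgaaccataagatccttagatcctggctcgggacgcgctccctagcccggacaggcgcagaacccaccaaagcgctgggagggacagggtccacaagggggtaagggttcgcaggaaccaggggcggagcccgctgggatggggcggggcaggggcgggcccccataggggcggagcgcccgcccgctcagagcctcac
None of the 4 motifs is in this window. Of 32851 mouse promoter windows of this length, 21.594% hold TGGGAA, 6.021% CACGTG, 9.424% AACAAT and 16.085% AGAACA, counting either strand. The RefSeq table held 8 windows for 7 of the 10 genes, and none for Hes1, Hey1 and Heyl, which were therefore not searched.

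Notch2, a receptor of wide tissue expression, was the most even of the 10 genes, with a spread within groups of 0.083 (SD), where 18% of all genes had a lower one. In females the knockout arrays read 9.69, 9.67, 9.83, 9.83 and 9.83, and the control arrays 9.86, 9.85, 9.92, 9.88 and 9.89. The groups did not overlap, and the difference was small at -0.11 (SE 0.06, unadjusted p = 0.05411, adjusted p = 0.9132, limma). Arrays of female knockouts and controls that did not overlap were thus found for 2 of the 10 genes, where 1.39% of all genes tested had them. In males no Notch gene of the 10 had separate arrays, where 0.42% of all genes did. Notch2 averaged 9.88 ± 0.05 in male knockouts and 9.86 ± 0.13 in male controls (SD, n = 6 each), a difference of 0.016 (adjusted p = 0.9817). The sexes differed by 0.11 in knockouts (adjusted p = 0.296) and by -0.019 in controls (adjusted p = 0.8823).

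Notch3, the receptor that is known from the mural cells of blood vessels and is also made by epithelia, had overlapping groups in every comparison. It averaged 9.43 ± 0.07 in male knockouts and 9.34 ± 0.14 in male controls, and 9.35 ± 0.08 in female knockouts and 9.45 ± 0.04 in female controls (SD, n = 6 each for males and 5 each for females). The difference was 0.08 in males and -0.09 in females, and the male effect minus the female effect was 0.17 (SE 0.08, unadjusted p = 0.03999, adjusted p = 0.9968). Over the 22 arrays, with group means removed, Notch3 went with the mean of 10 mural markers (Notch3 not among them) at r = -0.652. Over the 21 arrays without male control 6, a choice made after seeing the data, this value was -0.418. The relation was not particular to the mural list. Over the 22 arrays Notch3 gave -0.507 with the mesenchyme, -0.47 with the endothelial and -0.381 with the epithelial markers. Over the 21 arrays the most negative value was -0.551, with the epithelial markers. There the immune markers gave -0.35, the endothelial -0.192, the mesenchyme -0.051 and the blood markers 0.024. What lay behind these values was not tested. Without male control 6, the array with the most stromal signal, the male difference of Notch3 was 0.044 and its male minus female difference in controls was -0.062, against 0.08 and -0.10 with it.

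Jag1, a ligand that is essential for vessel and bile duct formation, was the second gene to differ between the sexes. The male control arrays ran from 8.73 through a median of 8.82 to 9.06, against 9.14, 9.20, 9.15, 8.99 and 9.25 in the female controls. Of the 6 male controls, 4 lay under the lowest female control and 2, arrays 2 and 6, lay above it. The male minus female difference was -0.27 (SE 0.07, adjusted p = 0.02052, limma), which makes Jag1 1.21-fold lower in male controls. In knockouts the same comparison gave -0.094 (SE 0.07, adjusted p = 0.6121), with male arrays of 8.90 to 9.19 (median 9.01) and female arrays of 9.14, 8.92, 9.01, 9.12 and 9.30. The change of the sex difference with genotype, which equals the male effect minus the female effect of Sox9 loss, was 0.18 (SE 0.10, adjusted p = 0.9968), so the genotypes were not shown to differ. Jag1 was 0.13 higher in male knockouts than in male controls (SE 0.07, unadjusted p = 0.07068, adjusted p = 0.8304) and 0.048 lower in female knockouts than in female controls. The call in controls was lost without male control 3 (-0.24, adjusted p = 0.0549), female control 2 (-0.26, 0.05622) or female control 5 (-0.25, 0.06427), and with each array centred on its median (-0.23, 0.1004).

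The window upstream of Jag1 (RefSeq, GRCm38.p6, chr2:137116521-137116770, minus strand) is shown because Jag1 is the called gene of the ligands, and it was searched for the same 4 motifs.
Jag1: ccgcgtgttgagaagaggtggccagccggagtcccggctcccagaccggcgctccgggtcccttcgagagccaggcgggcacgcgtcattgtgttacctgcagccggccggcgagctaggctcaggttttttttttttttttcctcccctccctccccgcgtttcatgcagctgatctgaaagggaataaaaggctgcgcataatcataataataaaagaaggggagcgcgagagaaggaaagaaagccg
It too holds none of them. No match says only that these letters are not in the window.

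Jag2, the second Jagged ligand, differed little in any comparison. It averaged 9.07 ± 0.15 in male knockouts and 9.16 ± 0.08 in male controls, and 9.11 ± 0.18 in female knockouts and 9.12 ± 0.11 in female controls. Its differences after Sox9 loss were -0.081 in males (adjusted p = 0.9048) and -0.018 in females (adjusted p = 0.9997). The sexes differed by 0.031 in controls and by -0.032 in knockouts, both smaller than the SD of any group. Dll1, a Delta-like ligand best known from the segmentation of the embryo, averaged 6.07 ± 0.12 in male knockouts and 6.12 ± 0.19 in male controls, and 6.09 ± 0.15 in female knockouts and 6.20 ± 0.10 in female controls. Its knockout differences were -0.050 in males and -0.11 in females (adjusted p = 0.9558 and 0.9997), and the sexes differed by -0.078 in controls and -0.024 in knockouts. With group means removed, Dll1 went with the mean of 4 blood markers at r = 0.683 over the 22 arrays. These were the usable 4 of 8 listed, and their means of 5.229 to 5.625 lay near the array medians of 5.10 to 5.27. Whether blood cells or shared variation of dim probe sets lay behind this value was not tested. Of the Dll1 windows in RefSeq, 1 of 2 holds the androgen receptor half-site, 44 bases before the start.

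Hey1, a transcriptional repressor that Notch switches on in many tissues, showed the largest difference of the 10 genes over the comparisons made. Male controls read 7.56 at the lowest, 7.64 at the median and 7.96 at the highest, and female controls read 8.15, 8.50, 8.26, 8.30 and 8.08. No arrays overlapped, and the male minus female difference was -0.53 (SE 0.12, 95% interval -0.77 to -0.28, adjusted p = 0.006465, limma), 1.44-fold lower in males. Among knockouts the male arrays ran from 7.05 through 7.49 to 7.95, and the female arrays read 8.42, 8.19, 8.26, 8.03 and 8.30. Again no arrays overlapped, and Hey1 was 1.69-fold lower in male knockouts (difference -0.76, SE 0.12, 95% interval -1.01 to -0.51, adjusted p = 0.0001323). Hey1 was the only one of the 10 genes whose male and female arrays were separate, in controls (where 5.64% of all genes were) and in knockouts (5.82% of all genes). In rising order of its mean, Hey1 stood at 7.48 ± 0.31 in male knockouts, 7.73 ± 0.18 in male controls, 8.24 ± 0.14 in female knockouts and 8.26 ± 0.16 in female controls (SD, n = 6 for males and 5 for females), and neighbours in that order within a sex were not called different.

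Between genotypes no Hey1 difference was called. Hey1 was 0.25 lower in male knockouts than in male controls (SE 0.11, unadjusted p = 0.03786, adjusted p = 0.7551), which was not a call, and 4 of the 6 male knockouts (arrays 1, 2, 3 and 6) lay below the lowest male control. In females the difference was -0.016 (SE 0.12, adjusted p = 0.9997). The male effect minus the female effect was -0.24 (SE 0.17, adjusted p = 0.9968). Without male control 6 the sex difference in controls was -0.57 (adjusted p = 0.00486) and the male knockout difference was -0.21 (adjusted p = 0.9187). Leaving out each array in turn moved the male knockout difference between -0.34 (without male knockout 4) and -0.16, and the interaction between -0.33 and -0.15, and neither was called.

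Single genes of the cell type marker lists were called between the sexes, while the lists as a whole went either way. Rgs5, a mural cell gene, was lower in males, with a difference of -0.995 in controls (adjusted p = 1.27e-05) and -1.16 in knockouts (adjusted p = 1.444e-06), and it was the only mural marker called of 11 (Notch3 counted here). Most of that list went the other way in controls, with 8 of 11 differences positive and a median of 0.15, against 5 of 11 in knockouts. Dpt, a gene of connective tissue fibroblasts, differed by -1.67 in controls and -1.58 in knockouts. Of the 10 mesenchyme markers, 2 (Dpt and Dcn) were lower in male controls, but 7 of 10 differences were positive (median 0.081), and in knockouts Dpt was lower and Lum higher, with 4 of 10 positive. Psca, listed here with the urothelial markers, was higher in males (0.82 in controls and 0.93 in knockouts). Most of that list went the other way, with 5 of 8 differences negative in controls and 6 of 8 in knockouts (medians -0.025 and -0.15). Of the 12 epithelial markers, Krt18 and Krt14 were lower in both genotypes, and in knockouts Krt8 was lower and Grhl2 higher as well. The 11 immune markers were negative without exception in male minus female knockouts (11 of 11, median -0.15, 3 at an unadjusted p under 0.05 and 0 called), and 5 of 11 were negative in controls. As whole lists, the mesenchyme markers averaged 6.55 to 7.55 in male controls and 6.82 to 7.05 in female controls, and 6.57 to 6.97 in male knockouts and 6.82 to 7.00 in female knockouts. The mural markers averaged 5.77 to 6.97 in male controls and 5.97 to 6.08 in female controls, and 5.72 to 6.12 in male knockouts and 5.91 to 6.11 in female knockouts. Male control 6 alone gave the upper ends of both male control ranges (7.55 and 6.97). The next male control, array 4, had a mesenchyme mean of 6.818, below the lowest female control (6.823). Its mural mean was 6, within the female control range. The counts and medians of these lists in controls include male control 6 and were not taken without it. No endothelial marker was called among 7 in limma, with 0 at an unadjusted p under 0.05 in controls and 1 in knockouts. Of 4 neural and glial markers, 1 (Ret) was called higher in male controls and 0 in knockouts, with 2 differences positive and 2 negative in each. Of 4 blood markers 0 were called in either genotype. The part of the single marker genes, and of the immune and urothelial lists, in the Hey1 difference was not tested. With the mural markers as a covariate the Hey1 difference was -0.54 in controls (adjusted p = 0.005524) and -0.74 in knockouts (adjusted p = 0.0002319), and with the endothelial markers -0.53 (adjusted p = 0.008295) and -0.76 (adjusted p = 0.0002013). For Jag1 in controls the mural covariate gave -0.28 (adjusted p = 0.01895) and the endothelial covariate -0.27 (adjusted p = 0.02449). These fits held male control 6, and no covariate fit was run without it. With group means removed, Hey1 went with the mural markers at r = 0.251 over 22 arrays and -0.002 over 21 without male control 6. With the mesenchyme markers these values were -0.003 and -0.493. The part of stromal signal on the other arrays was not tested.

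Hes1, the repressor most often read as a Notch output, averaged 7.87 ± 0.15 in male knockouts and 7.85 ± 0.09 in male controls, a difference of 0.021 (adjusted p = 0.9753). Female knockouts read 7.91, 7.76, 7.89, 7.88 and 7.99, against 7.95, 7.92, 7.96, 8.04 and 8.04 in female controls, and the difference of -0.094 (SE 0.07, adjusted p = 0.9997) came with overlapping arrays. In controls Hes1 was 0.13 lower in males, at an unadjusted p of 0.04336 and an adjusted p of 0.2416. In knockouts the sex difference was -0.018 (adjusted p = 0.951). Leaving out 1 array moved the knockout value between -0.071 and 0.010, so it had no settled sign.

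Heyl, a relative of Hey1, averaged 6.08 ± 0.10 in male knockouts and 6.03 ± 0.09 in male controls, and 6.05 ± 0.10 in female knockouts and 6.02 ± 0.09 in female controls. Its 4 differences lay between 0.016 (male minus female in controls) and 0.045 (male knockout minus control). Nrarp, a target that feeds back on the Notch transcription complex, averaged 6.62 ± 0.07 in male knockouts and 6.60 ± 0.10 in male controls, and 6.59 ± 0.10 in female knockouts and 6.63 ± 0.07 in female controls. Its differences lay between -0.042 (female knockout minus control) and 0.030 (male minus female in knockouts), below the SD within any group. The 95% interval of the Nrarp difference was -0.092 to 0.13 in males and -0.16 to 0.079 in females, and that of Heyl -0.072 to 0.16 and -0.096 to 0.16.

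The Nrarp window (RefSeq, GRCm38.p6, chr2:25180508-25180757, plus strand) is shown as the one with the most matches among the 8 windows searched, with the matched letters in capitals.
Nrarp: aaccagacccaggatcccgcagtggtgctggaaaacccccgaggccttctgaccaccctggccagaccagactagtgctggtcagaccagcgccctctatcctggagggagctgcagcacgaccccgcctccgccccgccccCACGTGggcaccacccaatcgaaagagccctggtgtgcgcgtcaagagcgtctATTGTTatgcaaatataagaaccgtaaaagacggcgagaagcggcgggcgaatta
The first capitals, 108 bases before the start, spell the E-box CACGTG, and the second, 55 bases before it, spell ATTGTT, the SOX core read on the other strand. The matches do not overlap. A match is a description of the letters and says nothing of whether a protein binds there. No TGGGAA was in any of the 8 windows of the Notch genes, which include none for Hes1, Hey1 or Heyl.

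**Figure D2:**
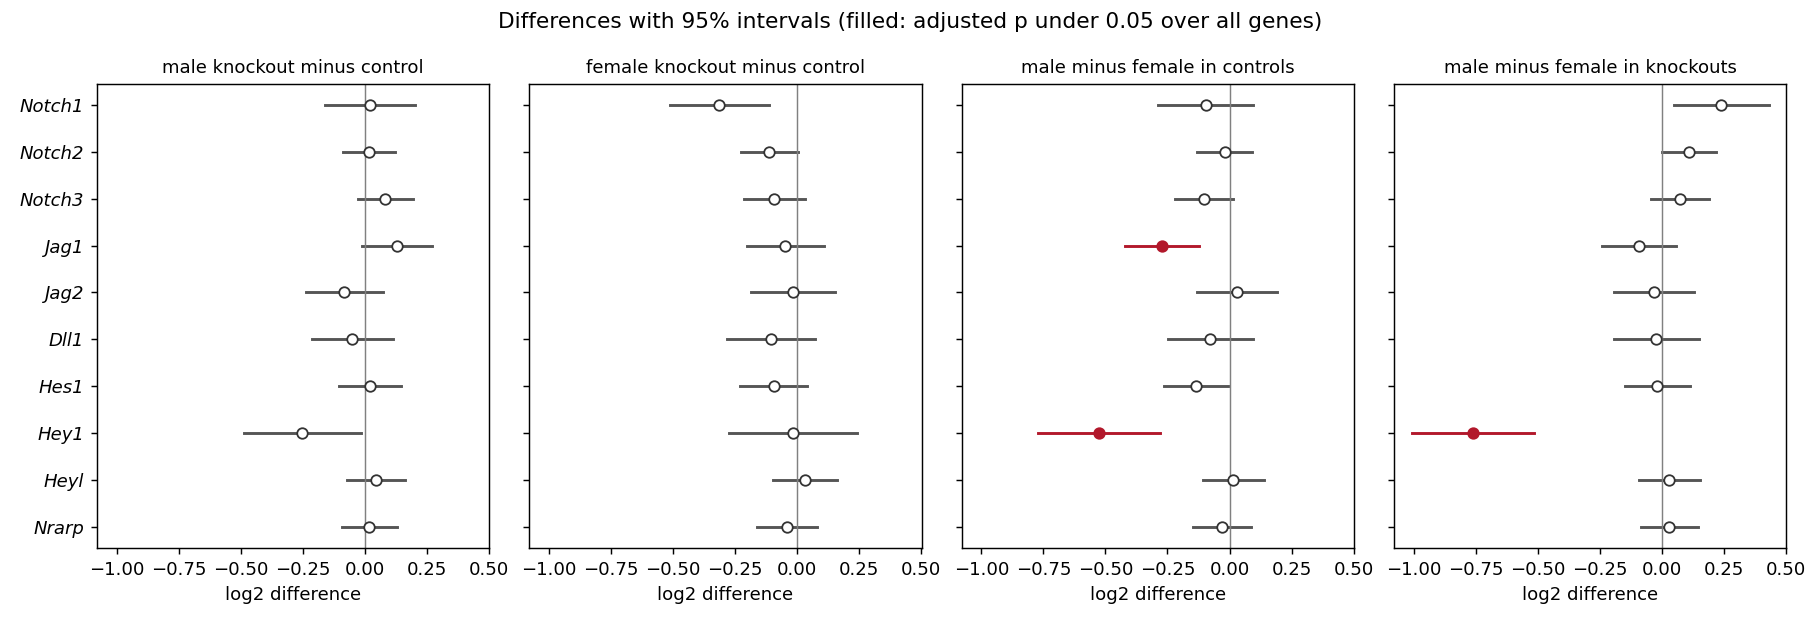
Log2 differences of the 10 Notch genes (horizontal axes) with 95% intervals from limma, in 4 comparisons. Filled red points passed an adjusted p of 0.05 over all genes, which were Hey1 (-0.53) and Jag1 (-0.27) for male minus female controls and Hey1 (-0.76) for male minus female knockouts, and no point is filled in the knockout comparisons.

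The knockout effect did not differ detectably between males and females for any of the 10 genes. In this test 0 of 10 were called, where 0.00525% of all genes were. An unadjusted p under 0.05 was found for 2 of the 10 (Notch1 and Notch3), and for 769 of all 19050 genes. For all 3 receptors the male minus female difference of effects was positive, at 0.33, 0.13 and 0.17, which follows from the small positive differences in males and negative ones in females given above. The median over the 10 genes was 0.088, and 0.0029 over all genes.

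The other listed genes of the pathway give the setting of these values. They are 82 genes in 7 groups by role, of which 75 were tested. The others were below the filter, as Mfap5 and Hey2 were, or were not analysed here. After Sox9 loss only Sox9 itself, listed as a Notch target of other tissues, was called, in males and in females. The median difference of the 75 was 0.0056 in males and -0.0090 in females. Between the sexes 12 of 75 were called in controls (7 higher and 5 lower in males) and 16 of 75 in knockouts (8 higher and 8 lower), which is 16% and 21.3%, against 6.94% and 7.19% of all genes. The lists were chosen with earlier results of these data known, and Sox9 itself is among the called genes. The larger shares are therefore a description of these lists, and enrichment of the pathway was not tested.

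Among the corepressors, the TLE proteins that work with Hes factors differed between the sexes in opposite directions. Tle4 was higher in males by 0.46 in controls (adjusted p = 7.769e-05) and by 0.58 in knockouts (adjusted p = 3.17e-06), with no overlap. It averaged 9.52 ± 0.12 in male knockouts, 9.46 ± 0.14 in male controls, 8.94 ± 0.10 in female knockouts and 8.996 ± 0.07 in female controls. Tle1 was higher in males as well (0.37 in controls, adjusted p = 0.01169, and 0.44 in knockouts, adjusted p = 0.00236). Tle3 was lower in males, by -0.29 in controls (adjusted p = 1.274e-05) and -0.17 in knockouts (adjusted p = 0.003089), where the call was lost with median centring (-0.16, adjusted p = 0.09511). The other 9 of the 12 corepressors tested were not called. After Sox9 loss Tle3 read 10.06 to 10.13 in female knockouts and 10.14 to 10.21 in female controls, a difference of -0.093 with separate arrays and an adjusted p of 0.8711.

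Of the 18 genes for ubiquitination and endocytosis of receptor and ligand, 2 were higher in male controls and 4 in male knockouts than in females, and 0 were lower. Neurl1b, a Neuralized-type ubiquitin ligase for Notch ligands, was higher in males by 0.45 in controls (adjusted p = 0.001317) and 0.49 in knockouts (adjusted p = 0.0005934). Dtx4, a Deltex ubiquitin ligase, was higher by 0.33 (adjusted p = 0.009973) and 0.34 (adjusted p = 0.007516). Its relatives Dtx3l (0.29, adjusted p = 0.007434) and Dtx2 (0.18, adjusted p = 0.0293) were called in knockouts, Dtx2 in only 16 of 23 alternative settings (adjusted p up to 0.09542, with the replicate block). Numb, which inhibits Notch by promoting its endocytosis, had the lowest p of this group after Sox9 loss in males. It read 8.84 to 8.998 in male knockouts and 8.66 to 8.86 in male controls, 0.21 higher with slightly overlapping arrays (SE 0.07, unadjusted p = 0.004603, adjusted p = 0.4586), and was not called.

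Among the other targets, 5 of 10 were called in each sex comparison. Cdkn1a, the cell cycle inhibitor p21, was lower in males (-0.70 in controls, adjusted p = 3.1e-06, and -0.49 in knockouts, adjusted p = 0.0002546). Myc, the growth-promoting transcription factor, was higher in males (0.50, adjusted p = 0.00276, and 0.65, adjusted p = 0.0001365). Bhlhe40, a repressor of the same protein class as the Hes factors, was lower (-0.48, adjusted p = 0.001524, and -0.46, adjusted p = 0.002307), as was Hes6, a Hes relative that is known to counter Hes1 (-0.21, adjusted p = 0.01046, and -0.27, adjusted p = 0.001182). The Hes6 call in controls was lost with the replicate block (adjusted p = 0.05286) and with median centring (adjusted p = 0.05922). Sox9 was higher in males (0.44, adjusted p = 0.001593, and 0.37, adjusted p = 0.007026). These genes answer to many signals besides Notch.

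Among 7 other receptors and ligands, Mfap2, a microfibril protein that can bind Jag1, was lower in males (-0.23 in controls, adjusted p = 0.01083, and -0.38 in knockouts, adjusted p = 7.628e-05), and Dlk2, a non-canonical ligand, was higher in male controls (0.21, adjusted p = 0.02666). The Dlk2 call held in 17 of 23 alternative settings and was lost with quantile normalization (adjusted p = 0.05374) or without male control 2 or 6 or female control 1, 4 or 5 (adjusted p up to 0.08347). The Mfap2 call in controls was lost with median centring (adjusted p = 0.103). Of the 10 genes that modify or process the receptor, 3 were lower in male than in female knockouts, namely Lfng, a fringe glycosyltransferase (-0.26, adjusted p = 0.04414), Eogt, which adds a sugar to the EGF repeats of the receptor (-0.30, adjusted p = 0.0329), and the convertase Furin (-0.18, adjusted p = 0.03603). These 3 calls held in 9, 15 and 10 of 23 alternative settings, and the replicate block ended those of Lfng (adjusted p = 0.09614) and Furin (adjusted p = 0.08236). No gene was called among the 8 tested proteases of the receptor or among the 10 of the nuclear complex, in any of these 4 comparisons in limma. At an unadjusted p under 0.05 there were 0 proteases, and 0 to 2 genes of the nuclear complex. In the group of proteases the lowest p after Sox9 loss was that of Psen2 in males (-0.058, adjusted p = 0.9089) and of Ncstn in females (0.12, adjusted p = 0.9399), both parts of gamma-secretase. In the nuclear complex it was that of the Mastermind genes Maml1 in males (0.13, adjusted p = 0.7777) and Maml2 in females (-0.072, adjusted p = 0.9997).

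**Figure D3:**
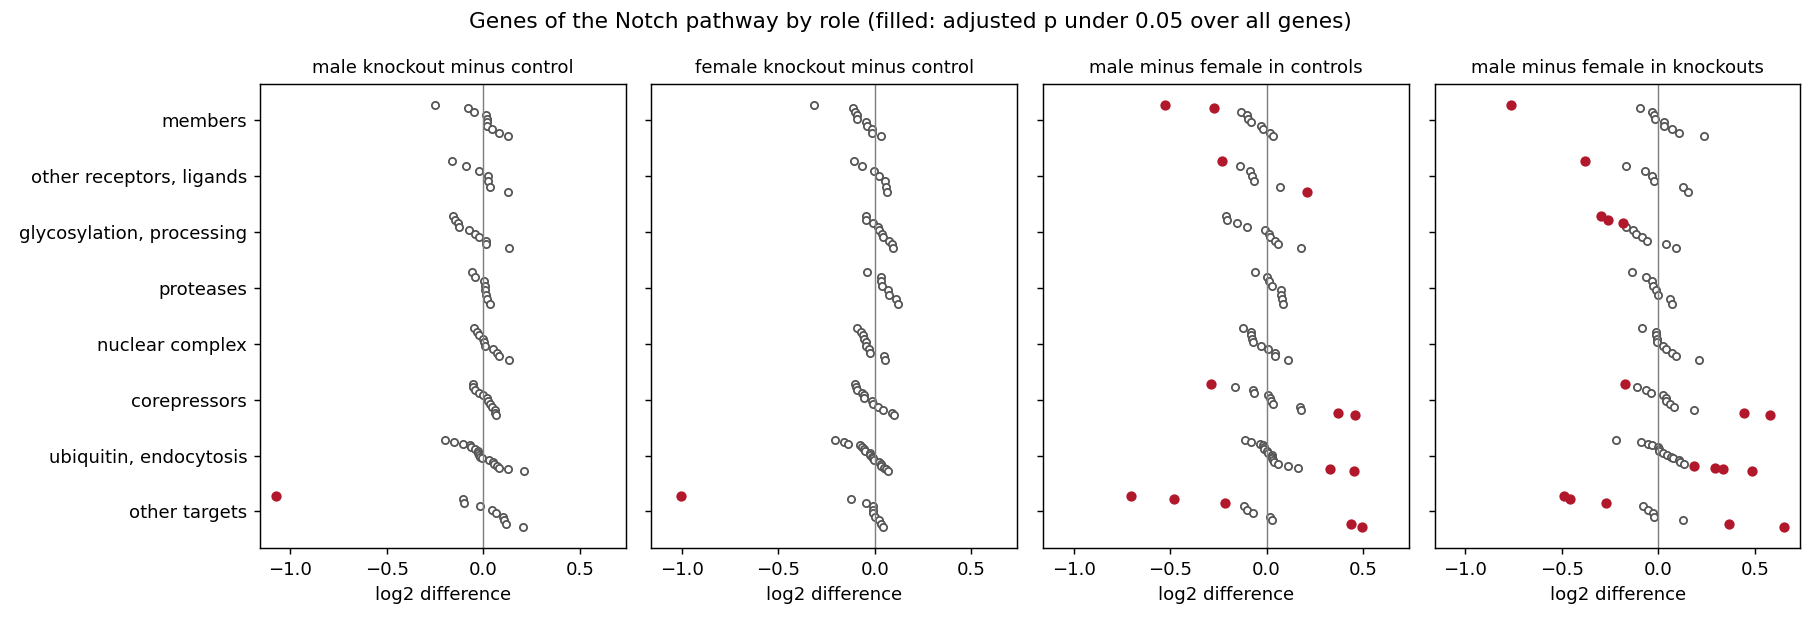
Log2 differences (horizontal axes) of the 10 Notch genes and the 75 other tested pathway genes, in rows by role, with 1 point per gene. Filled red points passed an adjusted p of 0.05 in limma over all genes: Sox9 alone in each knockout comparison (-1.07 and -1.003), and 12 and 16 of the other pathway genes in the comparisons of the sexes, most of them corepressors, ubiquitin ligases and targets.

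The 10 genes also varied between arrays of the same group, and the correlations that follow were taken over the 22 arrays after each group's mean was removed. They describe these arrays, which share their RNA and scale across genes, and carry no test. The 3 receptors went together, Notch1 with Notch3 at r = 0.71, Notch2 with Notch3 at 0.65 and Notch1 with Notch2 at 0.55. Hey1 ran against all 3, at -0.63 with Notch1, -0.60 with Notch3 and -0.42 with Notch2. Hey1 and Hes1 went together at 0.35. No ligand reached a correlation of 0.5 with another member, the highest being Jag1 with Notch1 at 0.488.

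Hey1 had a spread within groups of 0.213 (SD), where 92.4% of all genes had a lower one, and Notch1 of 0.161, with 81.7% of genes lower. The median over all genes was 0.113. The second principal component within groups held 14.5% of the variance and went with the array median at r = -0.643. Hey1 went with this component at r = -0.722 and Notch1 at 0.563, while Notch2 did not (0.039). The scores of the component overlapped across groups, running from -12.9 to 12.8 in male knockouts, -8.38 to 4.99 in male controls, -6.27 to 6.63 in female knockouts and -5.52 to 14.9 in female controls. Its part in the correlations of Hey1 and Notch1 was not tested. The first component (16.6% of the variance) went with Dll1 at r = -0.719, with the other members between -0.36 and 0.213. The third (10.1%) went with Jag2 at -0.72 and Notch3 at 0.533, with the other members between -0.29 and 0.305. These components went with the array median at r = -0.012 and -0.139.

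**Figure D4:**
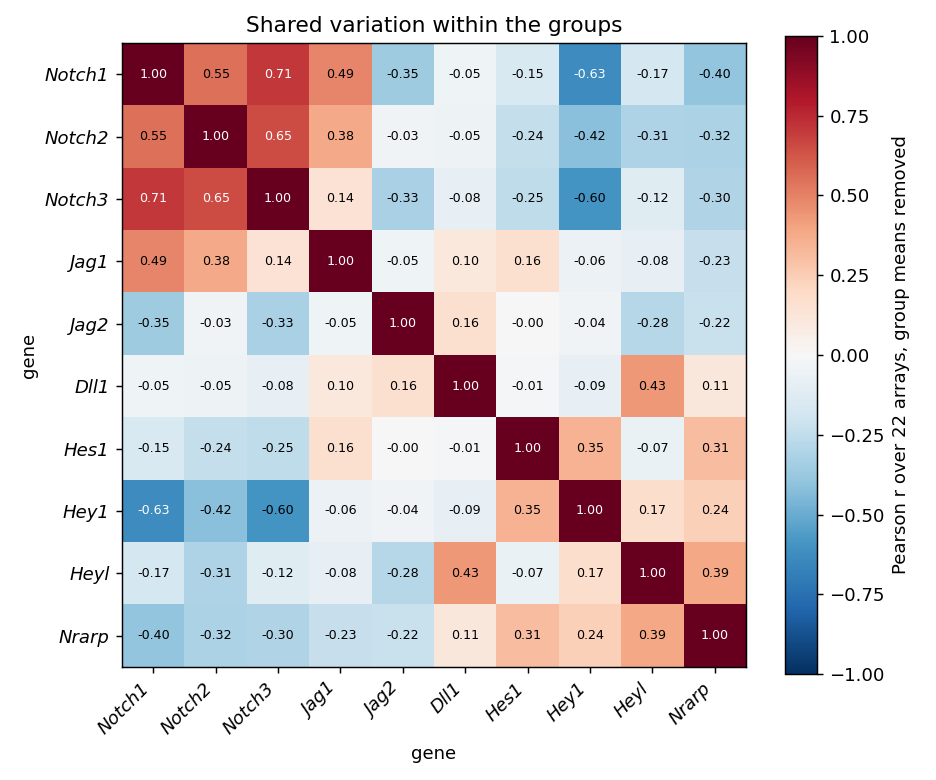
Pearson correlations between the 10 Notch genes over 22 arrays after group means were removed, with genes on both axes and the colour scale from -1 to 1. The 3 receptors form a block of positive values (0.55 to 0.71), and Hey1 is negative against each of them (-0.42 to -0.63).

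Over all genes tested, the gene that went most closely with each of the 10 by the same measure was Atrn for Notch1 (r = 0.857), Ptprf for Notch2 (0.826), Sorl1 for Notch3 (0.818), Hipk4 for Jag1 (0.743) and Zdhhc8 for Jag2 (0.836). For the remaining genes it was Pou5f1 for Dll1 (0.903), Gm17576 for Hes1 (0.808), Thumpd1 for Hey1 (0.862), Ankk1 for Heyl (0.787) and Xxylt1 for Nrarp (0.762). None of these is itself one of the 10. Each was the highest of 19050 correlations over 22 arrays, which is a description and not a sign of a shared function.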

How the data were processed

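RNA of the urogenital sinus epithelium was labelled and hybridised to Affymetrix whole-transcript arrays, per the labels' protocols. The authors' log2 table, used as deposited, covers 22 arrays and 72688 probe sets, 65770 of them transcript clusters. Its values of 1.59 to 14.23 showed the log2 scale, and array medians of 5.10 to 5.27 a common level. How background and normalization were handled is not stated in the labels, and 23 background control probe sets gave a median of 3.19. Precision is limited by how many arrays there were.

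Names came from the platform's annotation, with 30439 transcript clusters of exactly 1 symbol, 2146 of several and 33185 not listed, and 827 symbols were updated. Probe sets of 1 symbol that lay above the array median (the 50th percentile) on at least 5 arrays were kept, 19219 in all, and the brightest per gene was used for 19050 genes. limma 3.58.1 (R 4.3.3) fitted the 4 group means over all 22 arrays with default eBayes (18 residual and 4.34 prior degrees of freedom), and a gene was called at an adjusted p (Benjamini-Hochberg, two-sided test) under 0.05 over all genes. No covariate was fitted, since no label links arrays to litters, slides or scans. With group means removed, same-numbered arrays correlated at r = -0.423 to 0.279 (31 pairs, median -0.0282, 4 pairs over 0.1). Pairs of unlike number were not compared, so whether the numbers pair the arrays is not known.

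The 10 genes, the lists of pathway genes and the cell type markers were chosen with earlier results of these data known. All 10 are named, as are Sox9 and Shh, the called genes of each pathway list, otherwise its gene of smallest p, and the gene most correlated with each of the 10. Levels of different probe sets were not compared. Alternatives were quantile normalization, median centring, array weights, no filter or one at the 75th percentile, averaging the probe sets of a gene, trend and robust eBayes, fitting the compared groups alone, marker means as covariates, the replicate block and leaving out each array. The programs were tested on simulated data. Figures were drawn with matplotlib 3.10.9.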

Additional observations from a re-analysis of the deposited data

Results flagged for a closer look

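In 3 of the 40 groups of arrays of the 10 Notch genes, 1 array stood apart from the others of its group by the 95% limit of Dixon's test. Chance flags about 1 in 20 groups. Notch3 read 9.51 on female control 5, with the next array at 9.44. Jag2 read 9.37 on male knockout 1, with the next at 9.08. Heyl read 5.86 on male control 1, with the next at 6.03. None of these genes was called in any comparison. No gene of the 10 moved one way on every male knockout and the other way on every female knockout.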

How the results depend on the processing

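Hey1 was lower in males in each of the 23 alternatives run for each genotype, with adjusted p from 0.000851 to 0.03886 in controls and 8.782e-06 to 0.002799 in knockouts. Jag1 in controls was called in 19 of 23 and kept its sign, so the number of Notch genes called between control sexes was 1 with median centring and 1 to 2 when each array was left out in turn. Between knockout sexes it was 1 to 2, and 2 without male knockout 4, where Notch1 was added. The knockout comparisons and the interaction called 0 throughout. With the replicate block the counts were 2 (control sexes), 1 (knockout sexes) and 0 elsewhere, and no call among the 10 changed. It ended the calls of Hes6 between control sexes (adjusted p 0.05286) and of Furin (0.08236), Lfng (0.09614) and Dtx2 (0.09542) between knockout sexes. Median centring ended those of Mfap2 (0.103) and Hes6 (0.05922) in controls, and of Tle3 (0.09511), Eogt (0.1024), Furin (0.1647) and Lfng (0.1157) in knockouts. Notch1 in females stayed between -0.35 and -0.27, with adjusted p of 0.4249 to 0.9995. The filter at the 75th percentile left out Dll1, Heyl and Nrarp.

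Of 1562 values of the 10 genes under alternatives 1501 kept direction and call, 56 reversed, in 19 of 60 results, all with a size of at most 0.050 in the reported setting, 4 lost a call and 1 gained one. Median centring reversed male knockout minus control for Notch1 (-0.0016), Notch2 (-0.0062), Hes1 (-0.00057) and Nrarp (-0.0040), male minus female controls for Notch2 (0.019) and Nrarp (0.0078), and the interaction of Heyl (-0.0074, with quantile normalization -0.0019). Array weights reversed Nrarp in males (-0.022), Notch3 on average (0.0072) and the interaction of Heyl (-0.013), and the mural covariate Notch1 in males (-0.0085). Leaving out 1 array gave, for male knockout minus control, -0.045 to 0.081 for Notch1, -0.032 to 0.045 for Notch2, -0.099 to 0.010 for Dll1, -0.031 to 0.050 for Hes1 and -0.0045 to 0.044 for Nrarp. In females it gave -0.068 to 0.047 for Jag2, -0.061 to 0.045 for Hey1 and -0.0045 to 0.063 for Heyl, and on average -0.023 to 0.011 for Notch3 and -0.031 to 0.0022 for Nrarp. Between control sexes it gave -0.049 to 0.028 for Notch2, -0.011 to 0.055 for Jag2 and -0.021 to 0.050 for Heyl, and between knockout sexes -0.097 to 0.018 for Jag2, -0.076 to 0.016 for Dll1, -0.071 to 0.010 for Hes1 and -0.0016 to 0.058 for Heyl. The interaction of Heyl ran from -0.022 to 0.050. The cause of these reversals was not tested. The 12 other pathway genes called between control sexes ranged from 10 to 14 over the alternatives, and the 16 between knockout sexes from 12 to 16.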
